A study of Homo sapiens with 6 samples.

Results

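The genes described here encode the machinery that brings proteins into mitochondria and the complexes that shape the folds of the inner membrane (cristae). They were taken by symbol from the coding genes of the count table: the TOMM and TIMM genes, the MICOS genes, TIMMDC1, PAM16, IMMT, APOO, APOOL, CHCHD3, CHCHD4, CHCHD6, GFER, SAMM50, the metaxins MTX1 and MTX2, the processing peptidase genes PMPCA and PMPCB, and the prohibitins PHB and PHB2. This gave 43 genes of the 30651 in the table. The libraries are total RNA of PC-3, a human prostate cancer line derived from bone metastasis: 3 of a control group (Ctrl) and 3 of a group named after MTA1, a subunit of the NuRD chromatin complex. The data columns call these groups NC and shMTA1, the second with the usual prefix of a short hairpin RNA. The labels give every library the same protocol, which names lentivirus, transfection and stable clones. They do not say what the control cells carry, how many hairpins or clones were used, or whether the libraries came from separate cultures, so a p-value here reflects no more than the scatter of these libraries, possibly technical.

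Nearly all mitochondrial proteins are made in the cytosol and imported. Precursors are received and passed through the outer membrane by the TOM complex, and then take separate routes. Those with a cleavable presequence go through TIM23 and its motor to the matrix, where the processing peptidase removes the presequence. Small cysteine-rich proteins are trapped between the membranes by the MIA disulfide relay, carriers are escorted by the small TIM chaperones to TIM22, and beta-barrel proteins are inserted by the SAM complex. MICOS holds the necks of the cristae and contacts SAM, and the prohibitins form ring-shaped scaffolds in the inner membrane.

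The Ctrl libraries held 31726013 to 33849262 counts, those of the MTA1 group 29909172 to 30938820. MTA1 itself stood at 38.4, 40.6 and 41.1 CPM (counts per library scaled with TMM) in the Ctrl libraries and at 17.3, 18.0 and 16.7 CPM in the others, a log2 fold change of -1.21 ± 0.054 (edgeR adjusted p = 4.34e-13). The share of counts from the mitochondrial genome was 5.31% to 5.81% in Ctrl against 7.10% to 7.77% in the MTA1 group, and that from ribosomal protein genes 13.9% against 10.2% to 10.5%. The epithelial and PC-3 markers KRT8, KRT18, KRT19, EPCAM and VIM summed to 3888 to 4116 CPM in Ctrl against 3746 to 4046 in the MTA1 group, with VIM (744 to 798 against 1011 to 1070), EPCAM and KRT19 called higher, KRT8 (1836 to 1918 against 1503 to 1606) called lower and KRT18 not called. Of the luminal prostate genes, which PC-3 is known to lack or hold at low level, KLK2 was not among the listed genes, KLK3 was above 0 in 1 library, and TMPRSS2 stood at no more than 0.0656 CPM in any library. Leukocyte markers (5 in the list, with CD3E not among the listed genes) summed to at most 2.11 CPM in any library and HEK293 markers (5) to at most 1.46 CPM. Fibroblast markers (6) summed to 49.2 to 55.1 CPM in Ctrl and 36.2 to 38.0 CPM in the MTA1 group; COL1A1 (30.02 to 32.9 against 16.0 to 16.9) and PDGFRB were called lower, and LUM (11.97 to 13.6 against 12.7 to 14.7) and the other 3 were not called. The part of these shares and markers in the results below was not tested. In bulk RNA, fewer cells with a transcript and less of it per cell cannot be told apart.

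The import and cristae genes did not move as a block. Of the 43, 42 had enough counts to be tested. TOMM20L, a relative of the receptor TOMM20, was the exception with 1 count in all. With edgeR's quasi-likelihood test and an adjusted p below 0.05, 16 were lower and 14 higher in the MTA1 group, and 12 did not pass. Over all 15423 tested genes 58.1% passed, 28.6% as lower and 29.5% as higher, and over the 12655 that code for protein 61.4%, 29.8% and 31.6%. Of the tested import and cristae genes it was 38.1% lower and 33.3% higher. With scaling by library size only, the split turned to 10 lower (23.8%, beside 23.2% of all genes) and 16 higher (38.1%, beside 34.9%). The changes were small. The median log2 fold change was -0.03 beside 0.00 over all genes, the median absolute change was 0.18 beside 0.29, and 1 gene, the readthrough TIMM23B-AGAP6, differed by more than 2-fold. In 17 genes every MTA1-group library lay below every Ctrl library and in 14 above. The same held for 30.6% below and 32.1% above (62.7% in all) of the tested genes, and for 31.7%, 34% and 65.7% of the coding ones. Together the 43 genes held 0.382% to 0.392% of all counts in the Ctrl libraries and 0.387% to 0.396% in the others, ranges that overlap. Scaled with TMM, their sum was 3930 to 3991 CPM in Ctrl and 3776 to 3864 CPM in the MTA1 group, without overlap. The direction of the total thus depends on the scaling.

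**Figure D1:**
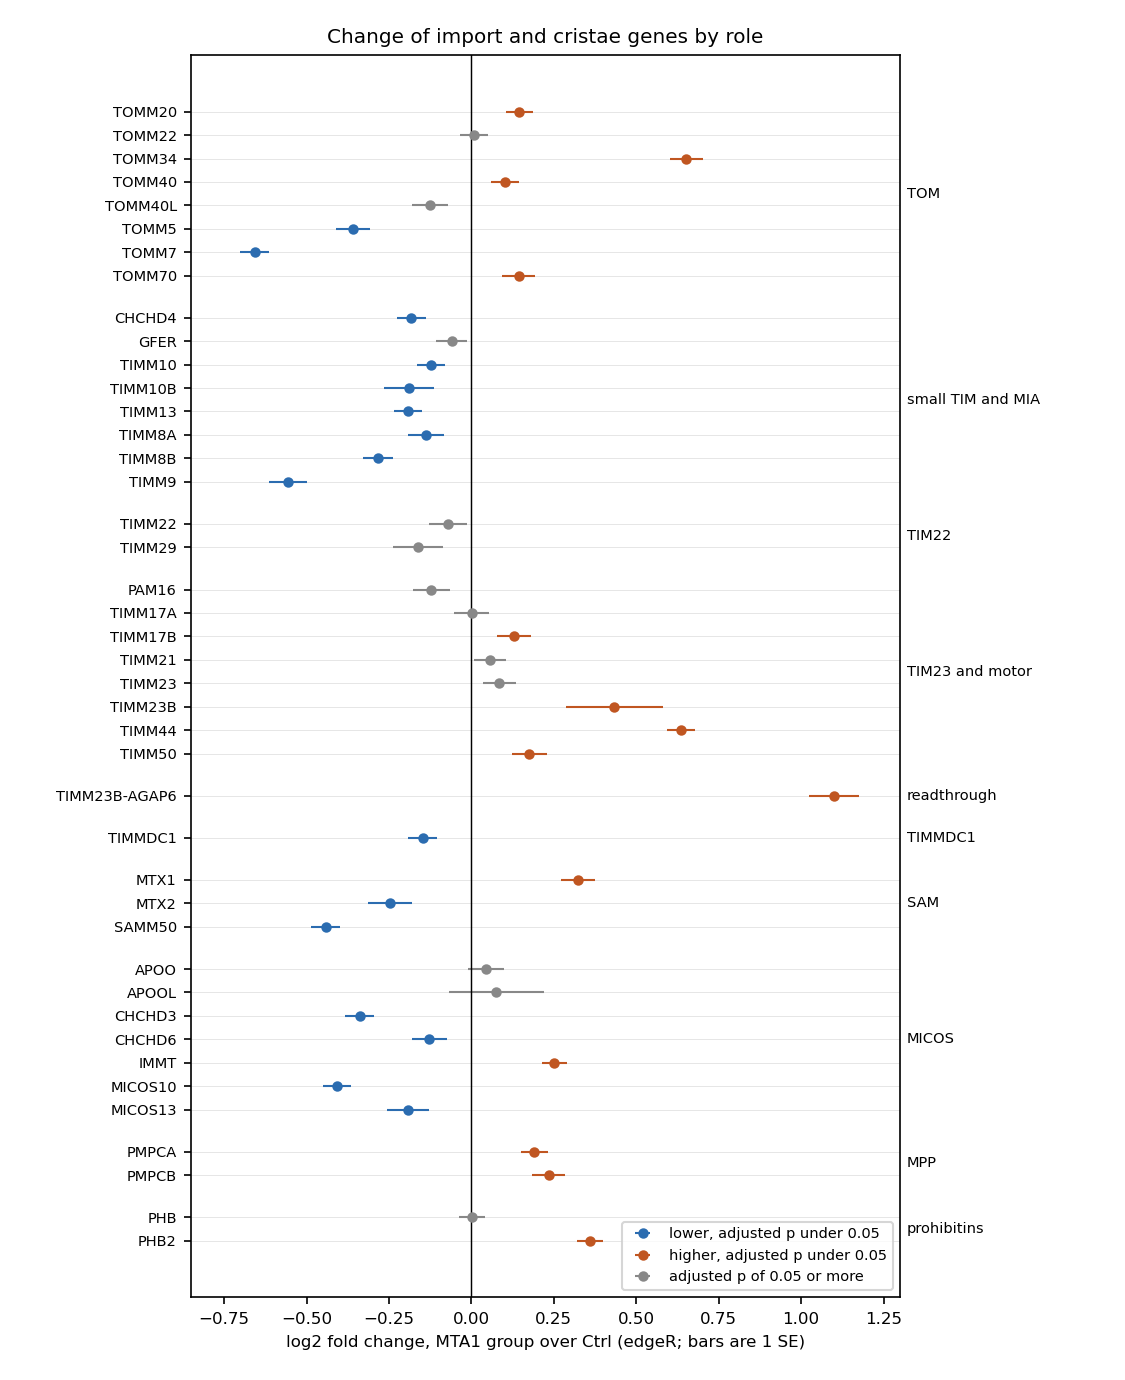
Log2 fold change of each tested gene, MTA1 group over Ctrl, with bars of 1 SE from edgeR, grouped by role and coloured by call. TOMM7 (-0.66) and TIMM9 (-0.56) stand at the low end, and TIMM44 (0.64), TOMM34 (0.65) and TIMM23B-AGAP6 (1.10) at the high end.

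Calls went both ways within TOM, SAM and MICOS and 1 way or not at all within the other roles. By role, 2 of 8 tested TOM genes were lower and 4 higher. The small TIM chaperones and the MIA relay had 7 of 8 lower and none higher. The 8 genes taken for TIM23 and its motor had none lower and 4 higher, and the 2 TIM22 genes no call. SAM had 2 lower and 1 higher of 3, MICOS 4 lower and 1 higher of 7, both peptidase genes were higher, and 1 of 2 prohibitins was higher. TIMMDC1 was lower and the readthrough higher. In the GENCODE 29 annotation TIMM9 shares exonic bases with KIAA0586, MICOS10 with CAPZB and MTX1 with THBS3 on the opposite strand, among others. On the same strand SAMM50 shares them with PNPLA3, MICOS10 with NBL1 and MINOS1-NBL1, PHB2 with SCARNA12, and TOMM5 with AL138752.2 and AL513165.2, among others. How such reads were counted is not given. Tested against a fold of 1.2, 10 of the genes still passed, 14.3% of the tested ones as lower and 9.52% as higher, beside 14.7% and 15.5% of all tested genes: TOMM7, TIMM9, SAMM50, MICOS10, TOMM5 and CHCHD3 as lower, and TIMM23B-AGAP6, TOMM34, TIMM44 and PHB2 as higher.

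The sequences upstream of 4 genes are shown because these genes moved in opposite directions: TOMM7, the largest fall, and TOMM34, the largest rise after the readthrough, and MICOS10 and IMMT, which belong to 1 complex. Each is the 250 bases before the RefSeq start (GRCh38.p14), 5′ to 3′ on the gene's strand. Capitals mark the letters GCGCA, then any base, then GCGC, a core of the sites of NRF1, a factor of many nuclear genes for mitochondrial proteins, and CCGGAAG, a core of ETS factor sites, each on either strand; the letters searched were chosen with the values known.
TOMM7: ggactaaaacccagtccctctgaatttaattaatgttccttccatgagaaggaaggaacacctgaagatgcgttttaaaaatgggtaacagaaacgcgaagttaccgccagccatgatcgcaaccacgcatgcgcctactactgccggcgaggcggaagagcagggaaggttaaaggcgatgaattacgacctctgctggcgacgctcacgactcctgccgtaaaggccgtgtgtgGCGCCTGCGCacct
TOMM34: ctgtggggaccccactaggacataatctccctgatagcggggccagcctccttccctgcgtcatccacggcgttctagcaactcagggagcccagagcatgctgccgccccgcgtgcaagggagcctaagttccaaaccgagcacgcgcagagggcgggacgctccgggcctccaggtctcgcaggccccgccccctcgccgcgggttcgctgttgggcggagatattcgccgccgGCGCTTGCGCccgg
MICOS10: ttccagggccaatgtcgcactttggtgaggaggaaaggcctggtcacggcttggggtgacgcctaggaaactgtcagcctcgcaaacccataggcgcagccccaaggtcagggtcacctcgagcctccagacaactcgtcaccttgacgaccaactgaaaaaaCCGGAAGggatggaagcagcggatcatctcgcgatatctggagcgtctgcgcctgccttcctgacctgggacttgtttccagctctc
IMMT: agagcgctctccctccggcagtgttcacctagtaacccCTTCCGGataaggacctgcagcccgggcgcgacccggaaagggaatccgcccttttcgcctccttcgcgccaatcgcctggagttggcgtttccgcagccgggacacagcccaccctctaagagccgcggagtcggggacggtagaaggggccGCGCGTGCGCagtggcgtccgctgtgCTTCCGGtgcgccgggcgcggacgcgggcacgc
The windows are chr7:22822850-22823099 (minus strand) for TOMM7, chr20:44960398-44960647 (minus) for TOMM34, chr1:19596729-19596978 (plus) for MICOS10 and chr2:86195463-86195712 (minus) for IMMT. TOMM7 and TOMM34 both hold the NRF1 letters from base -14 to base -5 before the start, though TOMM7 fell and TOMM34 rose. IMMT holds them from -59 to -50 and the ETS letters at -212 and at -33, and MICOS10 holds the ETS letters at -87. Over the 39 genes with a window in the table, 8 (20.5%) held the NRF1 letters and 14 (35.9%) the ETS letters, against 7.65% and 11.8% of 15843 coding genes with windows of the same length. The NRF1 letters were in 2 of 14 genes called lower and 4 of 13 called higher, and the ETS letters in 5 of 14 and 6 of 13. Of the other letters searched on both strands, CCAAT was in 15 (38.5%, against 34.5% of all), ACGTG, the core that hypoxia-inducible factors bind, in 8 (20.5%, against 20.8%), TGATGNAA in 2 (5.13%, against 2.21%) and the core of YY1 sites in none (against 0.41%). A match is a description of the letters and not a site.

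In the TOM complex the small subunits TOMM7 and TOMM5 fell. TOMM7, a small subunit tied to assembly of the complex, stood at 421.5, 413 and 405 CPM in Ctrl (replicates 1, 2 and 3, the order used throughout) and at 279.8, 258 and 248 in the MTA1 group. All libraries of the MTA1 group lay far below those of Ctrl (log2 fold change -0.66 ± 0.044, adjusted p = 1.46e-10). TOMM5, another small subunit, stood at 61.3, 62.4 and 61.1 CPM in Ctrl and 51.1, 48.7 and 44.3 in the MTA1 group (-0.36 ± 0.051, adjusted p = 5.33e-06). TOMM7 had the highest level per gene length of all 43 genes in both groups, at 204 ± 3.99 FPKM (fragments per length and depth, as deposited) in Ctrl and 135 ± 7.71 FPKM in the MTA1 group (SD, n = 3).

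Of the receptors and the channel of TOM, TOMM20, TOMM70 and TOMM40 were slightly higher and TOMM22 did not pass. TOMM20, the receptor for presequences, stood at 102, 103 and 105 CPM in Ctrl and 116, 111 and 115 in the MTA1 group, with no overlap (0.15 ± 0.040, adjusted p = 0.00438). TOMM70, the receptor for carrier precursors, went from 40.3, 40.1 and 37.1 to 44.1, 42.2 and 43.5 CPM (0.14 ± 0.050, adjusted p = 0.0192), but no longer passed without Ctrl replicate 3 (adjusted p = 0.128) or MTA1 replicate 1 (0.056) or with the DESeq2 Wald test (0.0675). The channel TOMM40 went from 80.4, 83.6 and 81.8 to 87.9, 85.9 and 89.9 CPM (0.10 ± 0.042, adjusted p = 0.0444), and that call ended when any 1 of the 6 libraries was left out (adjusted p from 0.0553 to 0.17), with DESeq2's size factors (0.0569) or Wald test (0.111), and with no filter (0.0818). For these 3 genes no MTA1-group library overlapped Ctrl. TOMM22, the central receptor, overlapped between the groups (0.01 ± 0.042, adjusted p = 0.884). TOMM40L, a relative of the channel, stood at 24.3, 23.9 and 25.3 CPM in Ctrl and 23.0, 22.9 and 21.4 in the MTA1 group (-0.13 ± 0.055, adjusted p = 0.0528), and passed as lower with DESeq2's size factors (0.0436), upper-quartile scaling (0.0496) or the 1 CPM filter (0.0386). TOMM34, a cytosolic co-chaperone for precursors and no subunit of the membrane complex, had the clearest rise of the TOMM genes. Its levels were 47.4, 50.2 and 44.99 CPM in Ctrl and 74.3, 71.6 and 78.0 in the MTA1 group (0.65 ± 0.050, adjusted p = 1.09e-09). Summed over the TOMM genes, TOMM34 included, the level was 923 to 948 CPM in Ctrl and 801 to 852 CPM in the MTA1 group. TOMM7 was the largest single part, with a mean of 413 CPM in Ctrl and 262 CPM in the MTA1 group. As 4 of the 8 tested TOMM genes were higher, the lower sum does not stand for each of them.

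**Figure D2:**
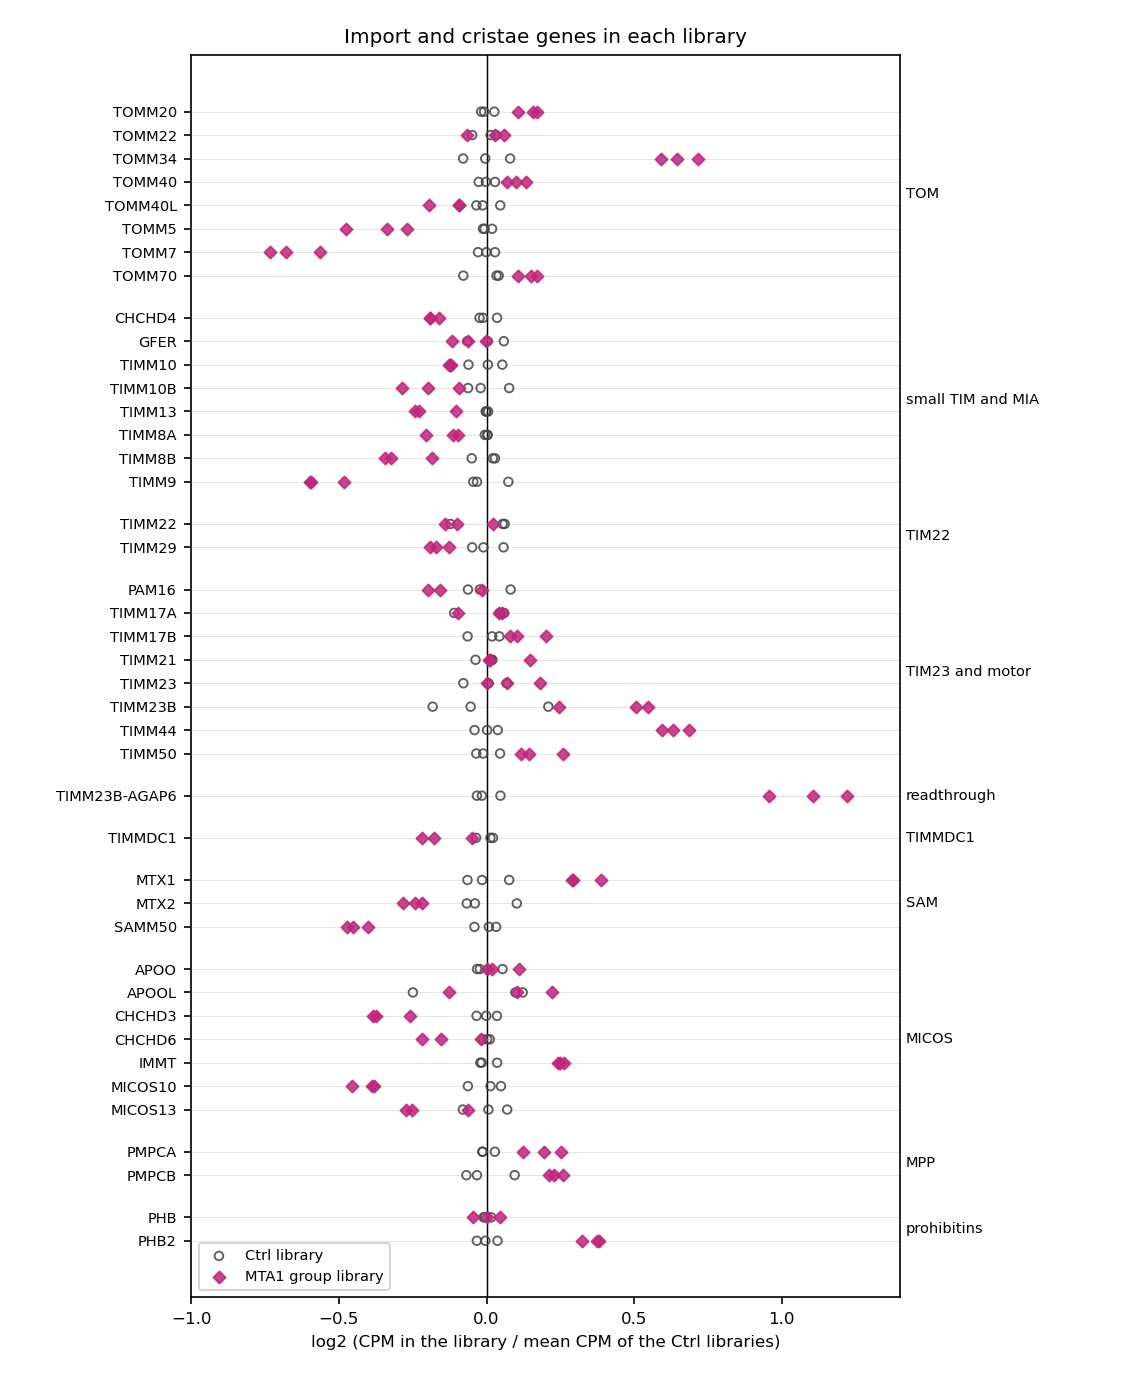
Level of each tested gene in each library as log2 of its CPM over the mean of the Ctrl libraries, with open circles for Ctrl and filled diamonds for the MTA1 group. The 3 diamonds of TOMM7, TIMM9, SAMM50 and MICOS10 lie left of every Ctrl circle and those of TOMM34, TIMM44, PHB2 and IMMT right of every one, whereas PHB, TIMM17A and TOMM22 overlap.

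The 6 small TIM chaperones and CHCHD4 of the MIA relay were lower, most by small steps. Each small TIM chaperone has paired cysteines and works in hexamers that carry membrane proteins across the space between the membranes. TIMM9 stood at 25.3, 27.5 and 25.5 CPM in Ctrl and 17.3, 18.7 and 17.3 in the MTA1 group (-0.56 ± 0.058, adjusted p = 7.89e-08). Its hexamer partner TIMM10 moved less, from 101, 105 and 96.9 to 92.8, 93.0 and 92.5 CPM (-0.12 ± 0.042, adjusted p = 0.0168). On the level per gene length, TIMM10 stood at 112.5 FPKM and TIMM9 at 15.9 FPKM in Ctrl, and at 108 and 11.3 FPKM in the MTA1 group. TIMM8B went from 157, 158 and 149.7 to 124, 122 and 136.5 CPM (-0.28 ± 0.046, adjusted p = 2.44e-05) and TIMM13, which pairs with TIMM8A in a second hexamer, fell by 0.19 ± 0.042 on the log2 scale (adjusted p = 6.62e-04). TIMM8A went from 24.3, 24.4 and 24.4 to 22.8, 21.2 and 22.5 CPM (-0.14 ± 0.053, adjusted p = 0.0328), and TIMM10B fell by 0.19 ± 0.075 (adjusted p = 0.037). None of the 6 chaperone genes overlapped between the groups.

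Of the relay itself, CHCHD4, the oxidoreductase that traps cysteine-rich precursors, fell by 0.18 ± 0.044 on the log2 scale (adjusted p = 0.00157), and GFER, the oxidase that recharges it, stood at -0.06 ± 0.048 (adjusted p = 0.294). Some of these calls ended when 1 library was left out. That of TIMM10 ended without Ctrl replicate 2 (adjusted p = 0.0749) or MTA1 replicate 2 (0.0588), that of TIMM8A without Ctrl replicate 2 (0.0664), Ctrl replicate 3 (0.0631) or MTA1 replicate 2 (0.155), and that of TIMM10B without Ctrl replicate 1 (0.0513), Ctrl replicate 2 (0.144), MTA1 replicate 1 (0.0751) or MTA1 replicate 3 (0.14). With scaling by library size only, 4 of the 8 genes in this role were called lower and none higher (TIMM10, TIMM8A and TIMM10B lost the call, with adjusted p of 0.278, 0.277 and 0.18), and on the deposited FPKM with a pseudocount of 0.1 it was 2 of 8, TIMM9 and TIMM8B. It was 5 of 8 with the DESeq2 Wald test and with no filter, where TIMM8A (adjusted p = 0.137 and 0.108) and TIMM10B (0.154 and 0.0712) did not pass. In the carrier translocase, TIMM22, its channel, stood at -0.07 ± 0.058 (adjusted p = 0.298) and passed as lower without Ctrl replicate 1 (0.0484), and TIMM29, an accessory subunit, stood at -0.16 ± 0.075 (adjusted p = 0.0699).

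Among the genes taken for the presequence translocase and its motor, every call of the edgeR test on all libraries was higher. Motor chaperones were placed in a separate list described below. Calls in that list went both ways, and the motor co-chaperone DNAJC19 was lower. TIMM44, which anchors the motor's chaperone to the channel, went from 80.2, 82.6 and 84.7 CPM in Ctrl to 128, 125 and 133 in the MTA1 group. That is a log2 fold change of 0.64 ± 0.042 (adjusted p = 1.17e-10), with every library of the MTA1 group above every Ctrl library. TIMM50, the receptor that takes over precursors from TOM, went from 29.5, 27.9 and 28.3 to 31.0, 34.2 and 31.5 CPM (0.18 ± 0.054, adjusted p = 0.00857), a call that ended without MTA1 replicate 2 (0.0652). The channel gene TIMM23 stood at 0.08 ± 0.050 (adjusted p = 0.155) and passed as higher without MTA1 replicate 1 (0.0449) and with scaling by library size only (0.0147). The regulatory motor subunit PAM16 stood at -0.12 ± 0.056 (adjusted p = 0.0721) and passed as lower without Ctrl replicate 3 (0.0434) or MTA1 replicate 3 (0.00917). TIMM21, which links TIM23 to TOM and to the respiratory chain, stood at 0.06 ± 0.047 (adjusted p = 0.322), passing as higher with scaling by library size only (0.0333).

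TIM23 has alternative partner subunits, TIMM17A and TIMM17B. TIMM17A stood at 65.0, 64.3 and 57.8 CPM in Ctrl and 64.2, 64.6 and 58.3 in the MTA1 group (0.00 ± 0.053, adjusted p = 0.988). TIMM17B went from 33.8, 31.4 and 33.3 to 34.7, 35.3 and 37.7 CPM (0.13 ± 0.053, adjusted p = 0.0423). TIMM17B no longer passed without Ctrl replicate 2 (0.173), Ctrl replicate 3 (0.0704), MTA1 replicate 2 (0.0586) or MTA1 replicate 3 (0.158), with DESeq2's size factors (0.0509) or Wald test (0.14), and with no filter (0.0587). The log2 ratio of TIMM17A to TIMM17B overlapped between the groups.

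A locus on chromosome 10 holds TIMM23B, a near-identical copy of TIMM23, and a readthrough transcript from it into AGAP6 that the table describes as a candidate for nonsense-mediated decay. The readthrough TIMM23B-AGAP6 was covered by 271, 275 and 273 counts in the Ctrl libraries and 557, 523 and 614 in the others. At 8.77, 8.40 and 8.30 against 18.3, 16.5 and 19.8 CPM its log2 fold change was 1.10 ± 0.076 (adjusted p = 2.00e-10), and it was the largest change of the 43 genes. TIMM23B had counts of 63, 73 and 88, then 103, 87 and 102 in the MTA1 group (0.43 ± 0.15, adjusted p = 0.017), a call that ended without Ctrl replicate 1 (0.0781), Ctrl replicate 2 (0.0532) or MTA1 replicate 1 (0.0607) or with the DESeq2 Wald test (0.0888). AGAP6, at the other end of the readthrough, had 15 to 28 counts in each library (0.21 ± 0.28, adjusted p = 0.538). TIMM23B and the readthrough share exonic bases, and TIMM23 and TIMM23B share sequence, so the split of reads among these 3 is uncertain. Without the readthrough, 13 of 41 tested genes were higher and 16 lower.

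TIMMDC1 resembles the TIM17 and TIM23 proteins but is an assembly factor of respiratory complex I. It was among the most abundant of the genes, with 270.0, 281 and 279 CPM in Ctrl and 238, 244.5 and 267.1 in the MTA1 group (-0.15 ± 0.044, adjusted p = 0.00746). The call ended without MTA1 replicate 1 (0.0511) or MTA1 replicate 2 (0.0514), with scaling by library size only (0.138) and on both FPKM scales (0.314 and 0.234).

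**Figure D3:**
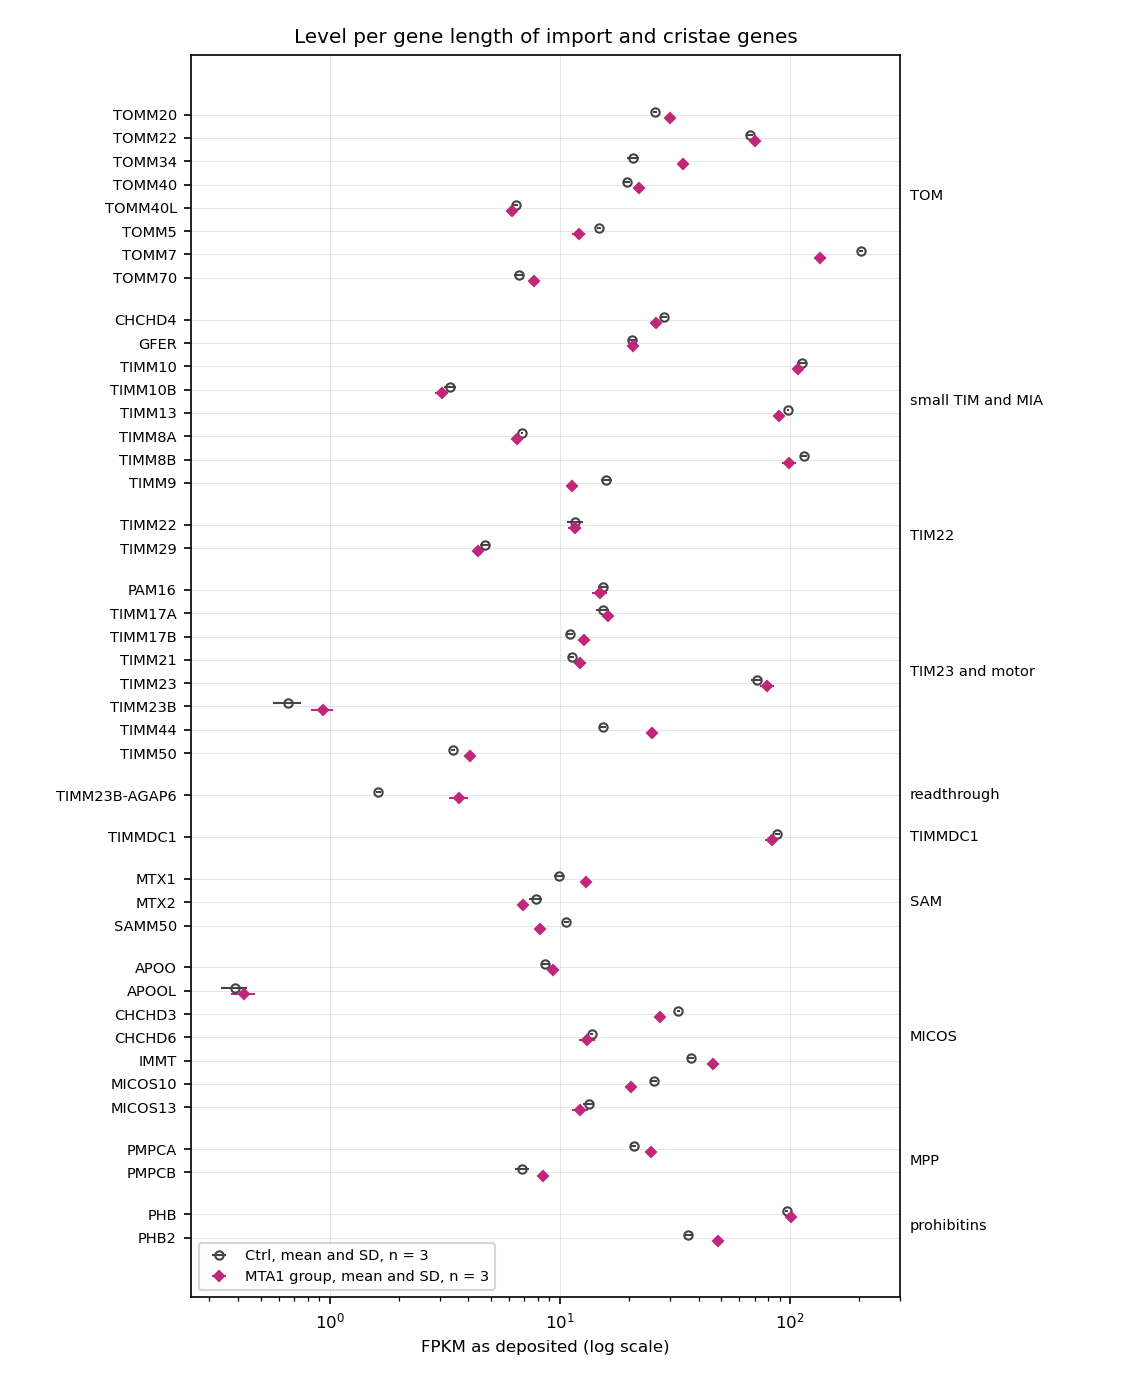
Deposited FPKM of each tested gene, a level per gene length on a log axis, as mean and SD over 3 libraries in each group. TOMM7 stood highest (204 FPKM in Ctrl, 135 in the MTA1 group) and APOOL lowest (0.387 and 0.423), and the distances between groups are small beside those between genes.

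In the SAM complex the metaxins parted. SAMM50, the beta-barrel that inserts other beta-barrels, stood at 80.8, 79.4 and 76.8 CPM in Ctrl and 56.9, 57.7 and 59.8 in the MTA1 group (-0.44 ± 0.044, adjusted p = 4.26e-08). MTX2 went from 14.9, 15.2 and 16.8 to 12.9, 13.4 and 13.2 CPM (-0.25 ± 0.066, adjusted p = 0.00332), whereas MTX1 went from 37.3, 36.0 and 39.7 to 49.2, 46.1 and 46.0 CPM (0.32 ± 0.052, adjusted p = 2.12e-05). None of these 3 genes overlapped between the groups. The log2 CPM ratio of MTX1 to MTX2 was 1.24 ± 0.043 in Ctrl and 1.80 ± 0.084 in the MTA1 group (SD, n = 3), a difference of 0.56 (exact permutation test, 2-sided, p = 0.1, the smallest that 3 against 3 allows; 0.16 adjusted over 8 pairs).

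MICOS showed the same parting between its largest subunit and most of the others. IMMT, also called MIC60, which bridges to SAM, rose from 157, 163 and 156.5 CPM in Ctrl to 190.5, 188 and 189 in the MTA1 group (0.25 ± 0.038, adjusted p = 1.25e-05). MICOS10, which bends the membrane at the cristae necks, fell from 169, 156 and 165 to 125, 125 and 119 CPM (-0.41 ± 0.042, adjusted p = 6.89e-08). Neither gene overlapped between the groups. In level per gene length, IMMT stood at 37.2 FPKM and MICOS10 at 25.7 FPKM in Ctrl, and at 46.4 and 20.3 FPKM in the MTA1 group. CHCHD3, the peripheral partner of IMMT, went from 133, 127 and 129.6 to 100.1, 108 and 99.3 CPM (-0.34 ± 0.044, adjusted p = 1.46e-06). Its relative CHCHD6 went from 43.4, 43.9 and 44.2 to 37.7, 39.4 and 43.3 CPM (-0.13 ± 0.053, adjusted p = 0.0454). The libraries of CHCHD6 nearly touched, and its call ended without Ctrl replicate 2 (0.0635), Ctrl replicate 3 (0.0892), MTA1 replicate 1 (0.225) or MTA1 replicate 2 (0.151), and with scaling by library size only (0.359), no filter (0.086), the DESeq2 Wald test (0.105) or the FPKM (0.459 and 0.393).

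MICOS13, which joins the subcomplexes of MICOS, fell by 0.19 ± 0.064 on the log2 scale (adjusted p = 0.014) with overlapping libraries, and the call ended without Ctrl replicate 2 (0.0736) or MTA1 replicate 2 (0.0692), and with scaling by library size only (0.104), the DESeq2 Wald test (0.0542) or the FPKM (0.203 and 0.154). The apolipoprotein-like subunits did not pass. APOO stood at 23.0, 24.5 and 23.2 CPM in Ctrl and 23.6, 25.4 and 23.9 in the MTA1 group (0.04 ± 0.055, adjusted p = 0.517). APOOL, with 80 to 105 counts in each library, stood at 3.11, 2.44 and 3.16 CPM and at 2.66, 3.12 and 3.38 CPM (0.08 ± 0.14, adjusted p = 0.68). At that depth a change of the size seen in APOO or CHCHD6 would be smaller than the standard error of APOOL.

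The genes of the matrix processing peptidase and 1 prohibitin were higher. PMPCA, the subunit that binds the presequence, went from 156, 161 and 156 CPM to 172, 180.2 and 187 (0.19 ± 0.041, adjusted p = 5.63e-04), and PMPCB, the catalytic subunit, from 47.4, 53.1 and 48.6 to 58.3, 57.6 and 59.6 (0.23 ± 0.049, adjusted p = 4.26e-04). PHB2 rose from 173, 181.5 and 176 CPM in Ctrl to 221, 230.3 and 229 in the MTA1 group (0.36 ± 0.039, adjusted p = 1.61e-07). These 3 genes lay above Ctrl in each library of the MTA1 group. PHB, the partner of PHB2 in the ring, stood at 568, 578.5 and 569.9 CPM in Ctrl and 572, 554 and 591 in the MTA1 group (0.00 ± 0.039, adjusted p = 0.994).

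**Figure D4:**
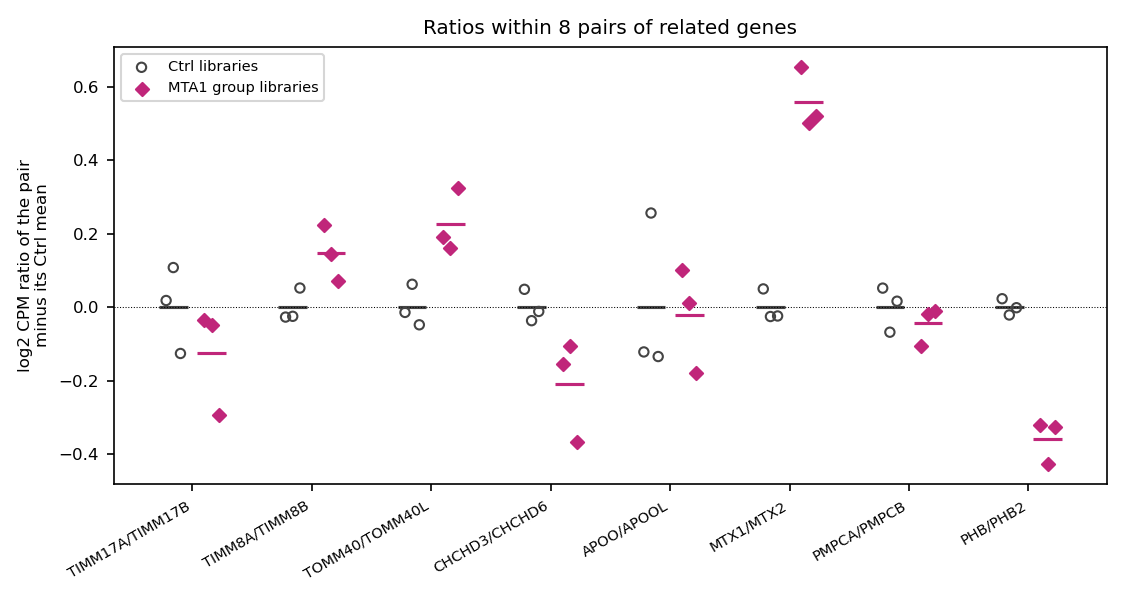
Log2 CPM ratio within each of 8 pairs of related genes in each library, minus the Ctrl mean of that pair, with short bars for the group means. The MTX1/MTX2 ratio lies 0.56 above Ctrl and the PHB/PHB2 ratio 0.36 below it with no overlap, whereas TIMM17A/TIMM17B, APOO/APOOL and PMPCA/PMPCB overlap.

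Ratios within pairs, taken on log2(CPM + 0.5), depend little on how the libraries are scaled. In 5 of the 8 pairs compared the libraries of the groups did not overlap, each with p = 0.1 in the exact permutation test (2-sided) and 0.16 after adjustment over the 8 pairs, the smallest values reached. Of single tested genes 62.7% did not overlap either, and the share over other pairs of genes was not computed. Beside the metaxins, the log2 ratio of PHB to PHB2 went from 1.69 ± 0.022 to 1.33 ± 0.060, that of CHCHD3 to CHCHD6 from 1.55 ± 0.044 to 1.35 ± 0.14, that of TOMM40 to TOMM40L from 1.72 ± 0.057 to 1.95 ± 0.087 and that of TIMM8A to TIMM8B from -2.64 ± 0.045 to -2.50 ± 0.077 (SD, n = 3 in each). The ratio of PMPCA to PMPCB was 1.65 ± 0.062 and 1.61 ± 0.053 (exact permutation p = 0.4), that of TIMM17A to TIMM17B 0.91 ± 0.12 and 0.79 ± 0.14 (exact permutation p = 0.4) and that of APOO to APOOL 2.83 ± 0.22 and 2.81 ± 0.14 (exact permutation p = 0.8).

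Genes with short coding sequences were more often called lower than higher. Coding length, taken from GENCODE 29 for 41 of the 42 tested genes and chosen as a measure after the values were seen, ran from 153 bases (TOMM5) to 2274 bases (IMMT). All tested coding genes were cut into 4 equal bins by coding length. Of the 28 import and cristae genes in the shortest bin, with at most 837 coding bases, 14 were lower and 3 higher. Of the 13 longer ones, 2 were lower (SAMM50 and TIMMDC1) and 10 higher. The 5 with the shortest coding sequence, TOMM5, TOMM7, MICOS10, TIMM9 and TIMM10, were all called lower. Across the 41 genes, which share libraries and depth, Spearman's rho between coding length and log2 fold change was 0.61 and Pearson's r with log2 length 0.61. The relation was weaker with the gene length implied by counts and FPKM. Over the 42 tested genes rho was then 0.403 and r 0.326, beside 0.145 and 0.107 over 15225 tested genes. In bins of that length, 8 were lower and 2 higher of 15 in the shortest. It was 6 and 7 of 17 in the second bin, and 2 and 5 of 10 in the third.

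The tendency with coding length was also present over all coding genes, in weaker form. Spearman's rho was 0.23 over 12599 genes, with the median log2 fold change at -0.14 in the shortest bin, -0.02 in the second, 0.05 in the third and 0.13 in the longest. In the shortest bin 45.6% of all tested coding genes were called lower and 19.9% higher, in the second 31.9% and 30.3%, in the third 24.2% and 34%, and in the longest 17.2% and 42.5%. Of the import and cristae genes, the second bin held 1 lower and 6 higher of 8, the third 1 lower and 3 higher of 4, and the longest IMMT alone, higher. The 28 import and cristae genes of the shortest bin had a median of -0.13 and the 8 of the second bin a median of 0.25, beside the -0.14 and -0.02 of all genes there. The part of message length in the calls was not tested.

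**Figure D5:**
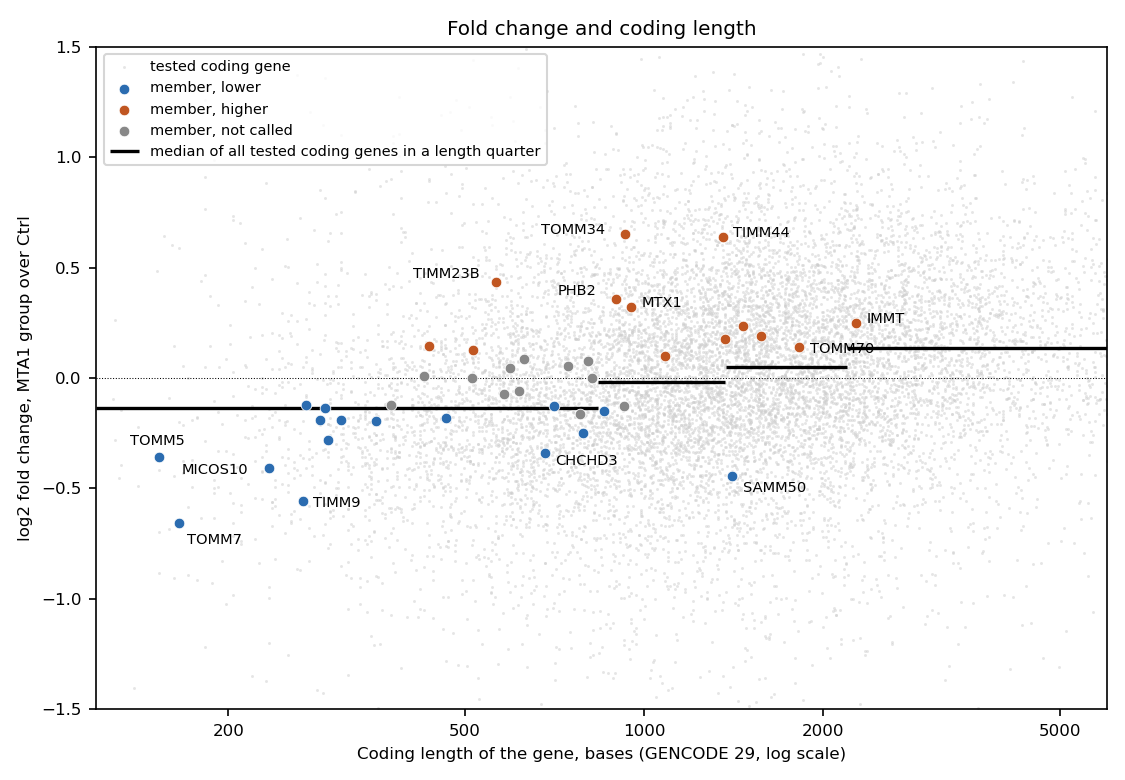
Log2 fold change against coding length (bases, log axis), with grey points for tested coding genes, coloured points for the import and cristae genes by call, and black lines for the median of all tested coding genes in each of 4 length bins. Genes beyond the axes are not drawn. TOMM5, TOMM7, MICOS10 and TIMM9 sit at the short, low end and IMMT at the long end above 0, with SAMM50 (-0.44) low among the longer genes.

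Other genes of the same processes were higher more often than lower. Of 40 genes for motor chaperones, insertion, maturation, inner membrane proteases and outer membrane partners, 17 were higher (42.5%) and 7 lower (17.5%), beside 29.5% and 28.6% of all tested genes, with a median log2 fold change of 0.07. PITRM1, which degrades cleaved presequences, went from 45.3, 46.2 and 46.8 CPM to 70.8, 73.2 and 74.9 (0.66 ± 0.045, adjusted p = 1.50e-10) and HSPD1, the matrix chaperonin, from 767, 743 and 767 to 1124, 1076 and 1129 (0.55 ± 0.040, adjusted p = 4.25e-10). BCS1L, an assembly factor of complex III (0.72 ± 0.062), and SPG7, a subunit of an inner membrane protease (0.45 ± 0.041), were higher too. ROMO1, a small inner membrane protein, went from 334, 314 and 321 CPM to 226.5, 219.6 and 197 (-0.59 ± 0.048, adjusted p = 2.00e-09), and CLPP, a matrix protease, from 96.4, 109 and 108.5 to 60.1, 68.9 and 72.5 (-0.64 ± 0.060, adjusted p = 1.85e-08). The protease HTRA2 (-0.31 ± 0.060) and the motor co-chaperone DNAJC19 (-0.20 ± 0.055) were lower.

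Set beside other nuclear genes for mitochondrial proteins, the import and cristae genes were less one-sided in their counts, a difference for which no test was made. Of 78 mitochondrial ribosomal protein genes, 56 were lower (71.8%) and 6 higher (7.69%), with a median of -0.22. Of 83 tested respiratory chain subunit genes, out of 89, 61 were lower (73.5%) and 7 higher (8.43%), with a median of -0.33. Over all tested genes it was 28.6% and 29.5%. The median gene length implied by counts and FPKM was 2877 and 2957 bases in these 2 lists and 3541 in the import and cristae genes. The part of length in this difference was not tested. All these lists come from the same libraries.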

How the data were processed

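Total RNA of PC-3 cells was sequenced in 6 libraries as stranded paired reads, per the labels' protocols. The authors deposited whole-number read counts per gene for 30651 genes and FPKM values, scaled for gene length and depth and rounded, for 29969. No aligner, counter, strand setting, build or annotation behind them is given in these sources, and the submitters' processing notes name DESeq2 with no role. The NC columns were matched to the Ctrl samples by elimination. In GENCODE 29, 24 of the 43 genes share exonic bases with a gene on the opposite strand, so their counts are uncertain if strand was not used. Sharing with a gene on the same strand was found for 11, and those counts are uncertain with or without use of strand.

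The counts went into edgeR 4.0.16 (R 4.3.3): filterByExpr (15423 genes kept), TMM, and a 2-sided quasi-likelihood test on group alone, with p-values adjusted over every tested gene (Benjamini-Hochberg) and called below 0.05. Log2 fold changes are MTA1 group over Ctrl ± SE from this fit, and CPM use TMM-scaled library sizes. The biological coefficient of variation was 4.45%. The test was run on simulated counts with few changed genes, as many up as down, and the same dispersion for all genes. That run does not cover data in which most genes are called, nor the effect of scaling on small changes. Pair ratios used log2(CPM + 0.5). Alternatives used DESeq2 1.42.0, limma 3.58.1, the replicate number as a block, other scalings and filters, the FPKM on a log2 scale with pseudocounts of 0.1 or 1, a minimum fold of 1.2, ribosomal and mitochondrial genes left out, and each library left out.

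The members and lists were chosen with earlier results of these data known. Values by library are given for genes past the threshold with an absolute log2 fold change of at least 0.4, every gene called higher and the genes of the 8 pairs, and for the other list up to 4 called genes with the smallest p in each direction. TIMM10, TOMM5, TIMMDC1, AGAP6 and the marker genes are given by library or by range beyond that rule, chosen after their values were seen. 1 marker gene is not reported here.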

Additional observations from a re-analysis of the deposited data

How the results depend on the processing

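Of the 16 genes called lower, 8 kept direction and call under all 17 alternatives that give a fold change and a test, and so did 9 of the 14 called higher; none reversed, and all of the others lost the call under at least 1. The number called lower was 10 with scaling by library size only (23.8%, beside 23.2% of all genes), 8 on log2(FPKM + 0.1) (19%, beside 20.9%) and 10 on log2(FPKM + 1) (23.8%, beside 21.3%). The larger share of lower calls than over all genes was thus not seen on log2(FPKM + 0.1) and was small on the other 2. The number called higher was 16, 14 and 14 (38.1%, 33.3% and 33.3%, beside 34.9%, 32.6% and 32.2%), and the median of all genes moved by up to 0.07 on these scales. There were 12 lower and 10 higher with the DESeq2 Wald test (28.6% and 23.8%). The shares over all genes there, 11.9% and 11.9%, are of 30650 genes not filtered by counts beforehand, so they are not comparable with the others. A minimum fold of 1.2 left 6 lower and 4 higher, with 2265 and 2385 over all genes. Leaving out 1 library gave 11 to 16 lower and 11 to 12 higher, with 11 lower and 11 higher without Ctrl replicate 2 (26.2% each, beside 26.3% and 26.6% of all genes) or without MTA1 replicate 2 (beside 25.5% and 26.8%). Of the import partners, 4 were lower with library size only, 3 on both FPKM scales, and 2 lower and 9 higher with the minimum fold; leaving out 1 library gave 5 to 8 lower and 16 to 18 higher. With the replicate number as a block 16 were lower and 14 higher, as without it; same-numbered libraries did not deviate together (correlations 0.07, -0.02 and 0.02), so the numbers were not taken as pairs. Pair ratio differences kept their sign when 1 library was left out, except APOO/APOOL (-0.09 to 0.11), but without MTA1 replicate 3 CHCHD3/CHCHD6 went from -0.21 to -0.13 and TIMM17A/TIMM17B from -0.13 to -0.04. The latter was -0.07 without Ctrl replicate 2 and -0.19 without Ctrl replicate 3, and PMPCA/PMPCB (-0.04) ranged from -0.08 to -0.01. The cause of these shifts was not tested. Depth limits TIMM23B and APOOL, with 63 to 105 counts in a library and standard errors of 0.15 and 0.14 on the log2 scale.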
